A study of Mus musculus with 16 samples.

Results

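The respiratory chain set comprised the 70 genes named by the prefixes Nduf, Sdh, Uqcr and Cox4 to Cox8 that the array measured with a probe set annotated to that symbol alone, out of 12394 genes measured in that way. By role, 33 belonged to complex I, 4 to complex II, 8 to complex III and 17 to complex IV. The remaining 8 were assembly factors (Ndufaf and Sdhaf genes), which carry the prefix but are not subunits, so the set held 62 subunits. Members were taken by name, not by measured values, but the set itself was chosen with earlier results of these data known. A gene with several such probe sets was represented by the one with the highest mean over all arrays. Ndufb4, Ndufa11 and Ndufs6 were left out because their probe sets were annotated to more than 1 gene.

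The RNA came from cells of mouse gliomas sorted as positive for CD11b and negative for Gr.1 and labelled tumor associated macrophages, with 1 Affymetrix 3' expression array for each of 16 mice. Both groups were Nestin-Tv-a;Ink4a/Arf-/- mice of a mixed background, so the controls lacked Ink4a/Arf too, and RCAS-PDGF-B-HA was delivered by DF-1 cells injected into the frontal cortex at 5 to 6 weeks of age. In this system the avian virus enters cells in which the Nestin promoter drives its receptor, so the tumors are driven by PDGF-B. Mice with a tumor of 4.5 to 40 mm3 on MRI were randomised to Vehicle (20% captisol) or to BLZ945, which blocks the receptor for the macrophage growth factor CSF-1, each by gavage once daily for 7 days. The dose was labelled as 200 mg without a body weight. The Vehicle group was made up of 4 mice aged 11.29 weeks, 2 aged 11.43 weeks and 2 aged 12.29 weeks. In the BLZ945 group 4 mice were aged 11.29 weeks and 4 were aged 13.14 weeks. Both sexes were present, with 4 females and 4 males in Vehicle and 5 females and 3 males in BLZ945.

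The respiratory chain passes electrons through protein complexes of the inner mitochondrial membrane to oxygen. Complex I oxidises NADH and complex II succinate, both hand electrons to ubiquinone, complex III passes them from ubiquinol to cytochrome c, and complex IV reduces oxygen. Complexes I, III and IV pump protons, and ATP synthase uses the gradient. Most subunits are encoded in the nucleus and the rest in mitochondrial DNA. In macrophages the balance between respiration and glycolysis is known to differ between activation states.

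Values are deposited log2 levels, and differences are BLZ945 minus Vehicle in log2, with 8 mice a group. A gene was called when limma's Benjamini-Hochberg adjusted p over all 12394 genes was under 0.05. Levels of different genes come from different probes and are not compared with each other. Because whole sorted populations were measured, fewer cells of a type and less RNA per cell cannot be told apart.

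In BLZ945-treated mice 7 members fell, 0 rose and 63 did not pass the test. The 7 were Ndufa4, Ndufs4, Ndufa12, Uqcrc2, Ndufv2, Uqcrc1 and Ndufab1, with differences from -0.62 to -0.43, that is 1.54-fold to 1.34-fold lower. They were 10.0% of the members, beside 5.34% of all genes called lower and 2.60% called higher. At an unadjusted p under 0.05, limma put 19 members lower and 0 higher, beside 11.6% and 11.1% of all genes. The fitted difference was below 0 for 51 of 70 members, or 72.9%, beside 38.9% of all genes. The median difference over members was -0.14, with quartiles of -0.29 and 0.01, beside a median of 0.07 over all genes. For no member were the groups without overlap, beside 1.04% of all genes lower and 0.315% higher with no overlap. With shares that small, a count of 0 in 70 members does not set them apart. The count of 7 was 4 without Vehicle 4, Vehicle 6, Vehicle 8 or BLZ945 7. With the SD of all values on an array as covariate (2.30 to 2.49 in Vehicle, 2.22 to 2.43 in BLZ945) 10 members were lower. In that fit 3 were higher (Cox7a2l, Cox7c and Ndufaf1, at 0.56, 0.75 and 0.43). Of all 12394 genes 6.28% were then called lower, and 866 were called higher, beside 322 without the covariate.

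**Figure D1:**
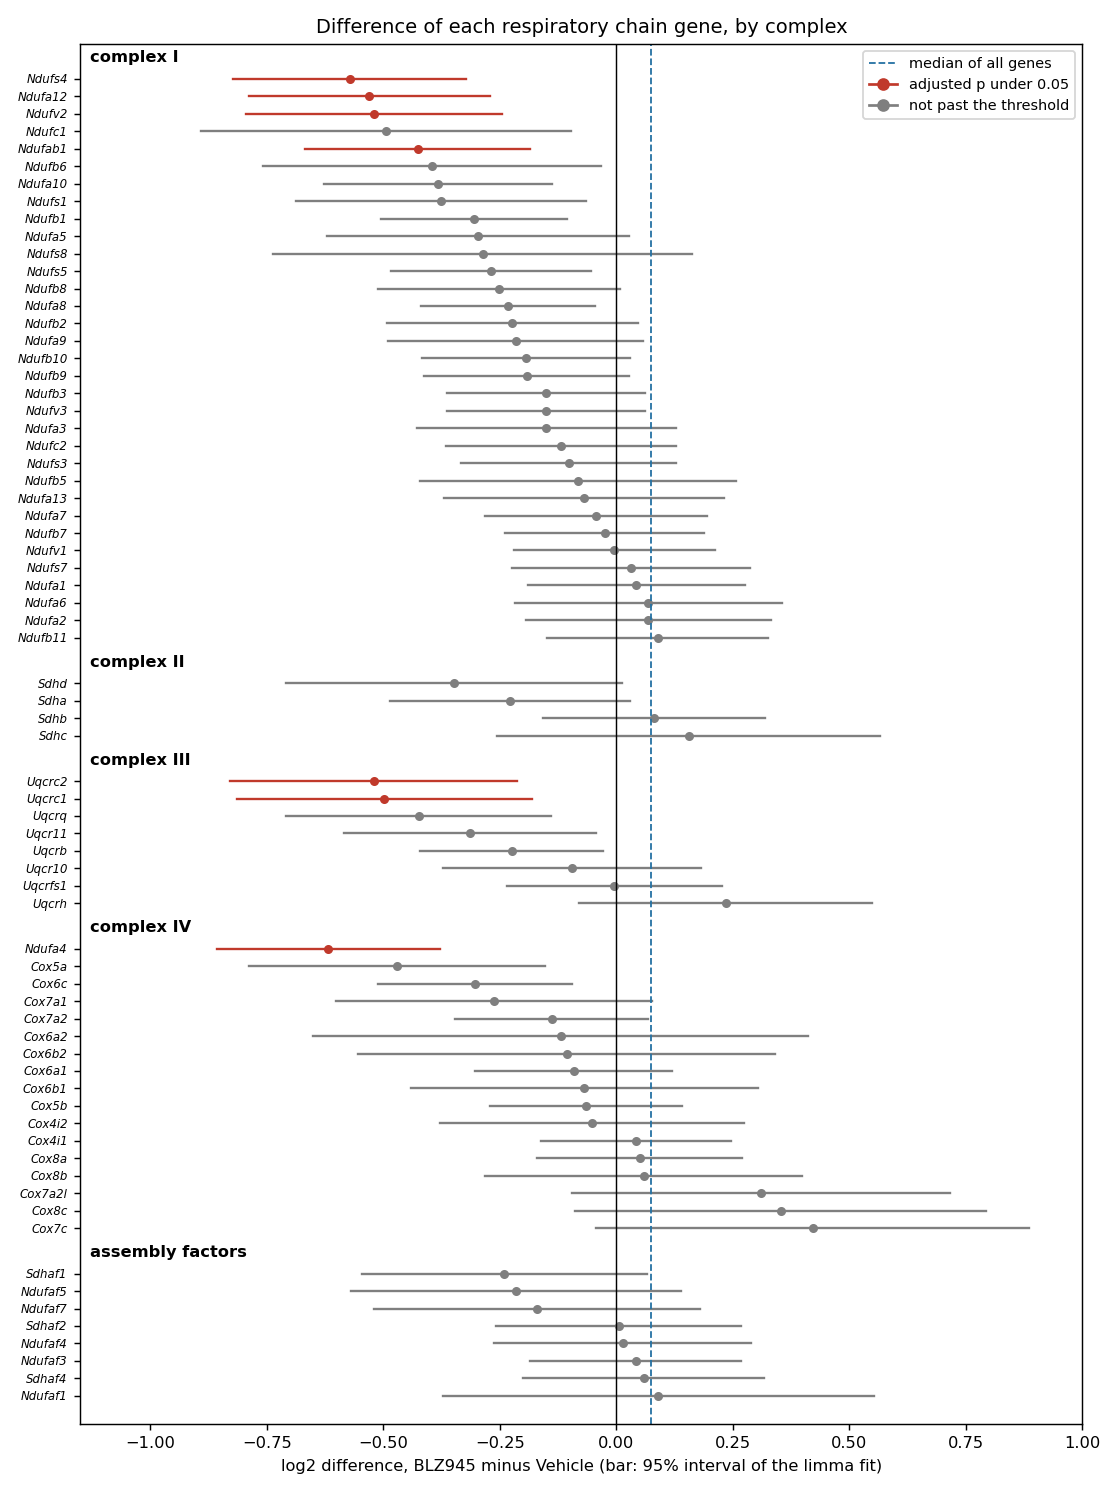
Log2 difference between BLZ945 and Vehicle (horizontal axis) for each of the 70 members, arranged by complex, with 95% confidence intervals from limma and 8 mice a group. Called members are red, the others grey, and the dashed line marks the median of all genes at 0.07. The 7 called members lie between -0.62 and -0.43, and the largest difference above 0, that of Cox7c at 0.42, did not pass the test.

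The share of genes called lower in BLZ945 varied with the level of the gene. Among the 1545 genes with a mean of at least 9 over the 16 arrays, 8.61% were called lower, 54.9% lay below 0 and the median difference was -0.04. Of the 45 members at or above that mean 5 were called lower, 77.8% lay below 0 and the median was -0.15. The 25 dimmer members had 2 called lower and a median of -0.12, beside 4.88% called lower and a median of 0.09 over all dimmer genes.

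Complex I held 4 of the 7 members that fell, of 33 measured, or 12.1%, beside 5.34% of all genes. Its median difference was -0.19, 28 members lay below 0, and 11 were lower at an unadjusted p under 0.05. Ndufs4, an accessory subunit at the NADH-oxidising arm whose loss causes complex I deficiency (probe set 1448959_at), measured 7.99, 8.20 and 8.46 (lowest, median and highest) in Vehicle and 7.25, 7.63 and 7.99 in BLZ945. The groups met at their edge: 7 of 8 BLZ945 mice lay below every Vehicle mouse. The difference was -0.57 ± 0.12 (SE, limma adjusted p = 0.00566). Its other, dimmer probe sets gave -0.018 and -0.20 and did not pass (limma adjusted p = 0.962 and 0.551 over all probe sets).

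Ndufa12, an accessory subunit that takes the place of an assembly factor late in the building of complex I (1455806_x_at), measured 10.33, 10.72 and 10.89 in Vehicle and 9.70, 10.16 and 10.41 in BLZ945. It fell by 0.53 ± 0.12 (SE, limma adjusted p = 0.0115), and 6 of 8 treated mice lay below every Vehicle mouse. Other probe sets of this gene that passed gave -0.66 and -0.58, while a dim one gave 0.33 and did not pass (limma adjusted p = 0.575). Ndufv2, which carries an iron-sulfur cluster beside the NADH-binding subunit (1428179_at), measured 9.61, 9.95 and 10.10 in Vehicle and 9.02, 9.37 and 9.79 in BLZ945. It fell by 0.52 ± 0.13 (SE, limma adjusted p = 0.0186), and the groups shared part of their range, since 5 treated mice lay below every Vehicle mouse. Its other probe sets gave -0.23 and -0.28 and did not pass.

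Ndufab1, the mitochondrial acyl carrier protein, serves in lipoic acid and iron-sulfur cluster synthesis as well as in complex I. Its brightest probe set (1428159_s_at) measured 9.72, 9.96 and 10.38 in Vehicle and 9.33, 9.52 and 9.89 in BLZ945, a fall of 0.43 ± 0.12 (SE, limma adjusted p = 0.0274), with 7 of 8 treated mice below every Vehicle mouse. The direction was not shared by its dimmer probe sets, at 0.17 and 0.26, neither of which passed. Leaving out Vehicle 4, Vehicle 6, Vehicle 8 or BLZ945 7 ended the call of Ndufab1, with limma adjusted p between 0.0522 and 0.0608.

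The catalytic core of complex I gave a less uniform picture. Ndufs1, the largest subunit of the NADH-oxidising arm, measured 8.22, 8.42 and 8.86 in Vehicle and 7.76, 7.94 and 8.54 in BLZ945, and its difference of -0.38 did not pass (limma adjusted p = 0.135). Ndufv1, the subunit that binds NADH and flavin, had a difference of -0.0043 (limma adjusted p = 0.984), and its 95% confidence interval ran from -0.22 to 0.21. The other iron-sulfur and quinone-site subunits Ndufs3, Ndufs7 and Ndufs8 had differences of -0.10, 0.03 and -0.29 and did not pass. Other probe sets of Ndufs8 gave -0.45 (limma adjusted p = 0.0522 over all probe sets), -0.33, -0.32, -0.22 and -0.07. Those of Ndufv1 gave -0.25 and -0.12, and that of Ndufs7 gave -0.0068. None of these other probe sets passed.

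Grouped by place in the enzyme, 3 of 9 members of the NADH-oxidising module were called lower (Ndufs4, Ndufa12 and Ndufv2). So were 0 of 5 in the ubiquinone-reducing module and 1 of 19 in the remainder. The shares were 33.3%, 0% and 5.26%, beside 5.34% of all genes. This grouping was made after the values were seen, and no test was made of it. Just outside the threshold were the accessory subunits Ndufa10 at -0.38 (limma adjusted p = 0.0509) and Ndufb1 at -0.31 (limma adjusted p = 0.0547). Ndufa10 measured 9.50, 9.67 and 9.83 in Vehicle and 8.91, 9.35 and 9.68 in BLZ945, with 7 of 8 treated mice below every Vehicle mouse. Ndufb1 measured 6.62, 6.76 and 7.00 in Vehicle and 6.30, 6.49 and 6.70 in BLZ945, and 6 treated mice lay below every Vehicle mouse. Among the accessory subunits that did not pass, Ndufc1 stood lowest at -0.49 (limma adjusted p = 0.124) with a wide interval from -0.89 to -0.10. Ndufb11 had the highest difference of complex I at 0.09, with an interval from -0.15 to 0.33, and Ndufa1 was at 0.04. The other 19 accessory subunits lay between -0.39 (Ndufb6) and 0.07 (Ndufa2 and Ndufa6) and did not pass. They included Ndufs5 at -0.27, where 7 of 8 treated mice lay below every Vehicle mouse and the eighth above them all, Ndufa8 at -0.23, Ndufa9, which sits near the ubiquinone site, at -0.22, Ndufa13, also known as GRIM-19, at -0.07, and Ndufv3 at -0.15.

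Complex II, which is also the succinate dehydrogenase of the tricarboxylic acid cycle, had 0 of 4 subunits called by limma. On the probe sets used, none was lower or higher at an unadjusted p under 0.05. Sdha, the flavin-carrying catalytic subunit, measured 9.49, 9.73 and 9.97 in Vehicle and 9.01, 9.50 and 9.87 in BLZ945, a difference of -0.23 (limma adjusted p = 0.286). Sdhb, the iron-sulfur subunit, measured 9.92, 10.00 and 10.20 in Vehicle and 9.69, 10.22 and 10.40 in BLZ945, a difference of 0.08 (limma adjusted p = 0.678). The treated mice were spread on both sides of the Vehicle range for Sdhb, with 3 below it and 4 above it. The membrane anchors Sdhd and Sdhc stood at -0.35 (limma adjusted p = 0.238) and 0.16 (limma adjusted p = 0.644), and their groups overlapped widely. For Sdhc the direction depended on the probe set. Its other one, with a mean of 8.14 beside 8.18, gave -0.27 (limma unadjusted p = 0.0434, adjusted p = 0.215 over all probe sets).

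Complex III had 2 of 8 members called lower, a median difference of -0.27, and 7 members below 0. The pair were Uqcrc1 and Uqcrc2, the core proteins that form the matrix-facing part of the complex and derive from a processing peptidase. Uqcrc2 (1435757_a_at) measured 10.15, 10.36 and 10.62 in Vehicle and 9.13, 9.94 and 10.24 in BLZ945. The difference was -0.52 ± 0.15 (SE, limma adjusted p = 0.0346), with 6 of 8 treated mice below every Vehicle mouse, and the treated mice varied more (SD 0.39 against 0.14). Its other probe set, with a mean of 9.92 beside 10.10 for the one used, gave -0.23 and did not pass (limma adjusted p = 0.302 over all probe sets). Uqcrc1 (1428782_a_at) measured 8.93, 9.12 and 9.63 in Vehicle and 8.16, 8.66 and 9.24 in BLZ945, a difference of -0.50 ± 0.15 (SE). Its limma adjusted p of 0.0491 is the closest to the threshold among the called members.

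Both complex III calls rested on the full set of mice. Uqcrc2 lost its call in 9 of 16 fits that left out 1 mouse, those without Vehicle 3, 4, 5, 6, 7 or 8 or without BLZ945 5, 7 or 8 (limma adjusted p between 0.0518 and 0.0736). Uqcrc1 lost it in 13, all but those without Vehicle 7, BLZ945 1 or BLZ945 4 (limma adjusted p between 0.0610 and 0.0967). Ndufa4, Ndufs4, Ndufa12 and Ndufv2 passed in all 16.

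Of the other complex III members, Uqcrq, a small subunit known as the ubiquinone-binding protein, stood at -0.42 (limma adjusted p = 0.0616) and Uqcr11 at -0.31 (limma adjusted p = 0.153). Uqcrq measured 9.28, 9.54 and 10.03 in Vehicle and 8.76, 9.16 and 9.64 in BLZ945, and 6 treated mice lay below every Vehicle mouse. Uqcrfs1, the Rieske iron-sulfur protein that takes electrons from ubiquinol, measured 8.93, 9.10 and 9.30 in Vehicle and 8.71, 9.18 and 9.29 in BLZ945. Its difference was -0.0039, with an interval from -0.23 to 0.23 (limma adjusted p = 0.987), so the groups lay on top of each other. Uqcrb stood at -0.22 (limma adjusted p = 0.160) on its brightest probe set, while its other probe set was lower by a difference of -0.64 that passed. Uqcr10 stood at -0.09 and Uqcrh, a hinge protein at the cytochrome c site, at 0.23, the only complex III member above 0. Neither passed.

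Complex IV had 1 of 17 members called lower, or 5.88%, beside 5.34% of all genes, with a median of -0.07 and 11 members below 0. That member was Ndufa4, named for complex I and since assigned to complex IV, and it had the largest difference of the 70. Ndufa4 (1424085_at) measured 9.48, 9.85 and 10.13 in Vehicle and 8.95, 9.26 and 9.55 in BLZ945. The groups overlapped by a single treated mouse, as 7 of 8 lay below every Vehicle mouse, and the difference was -0.62 ± 0.11 (SE, limma adjusted p = 0.00217).

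**Figure D2:**
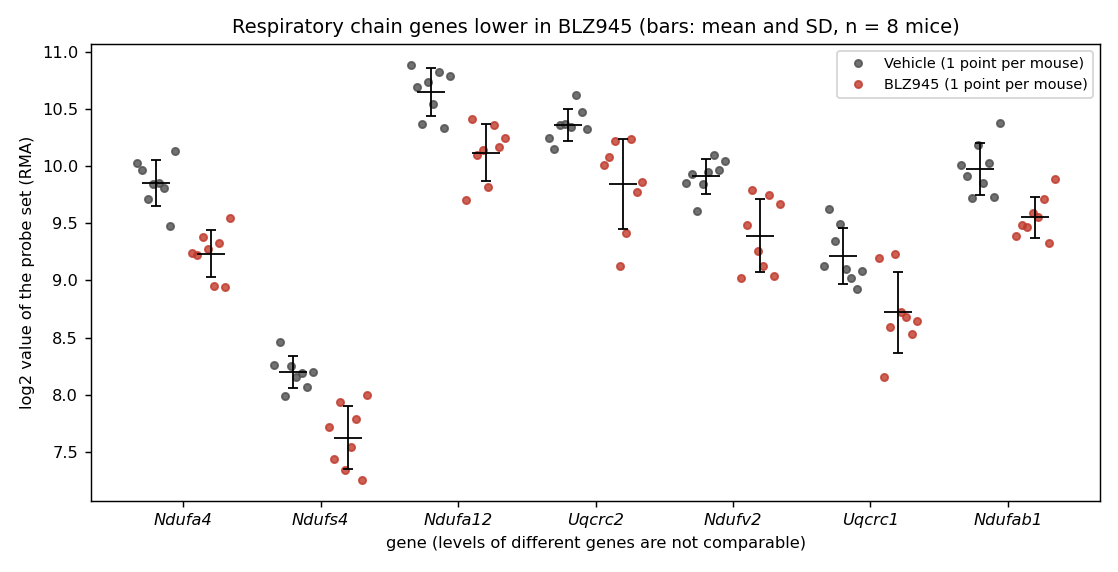
Log2 level (vertical axis) of the 7 called members in each of the 8 Vehicle and 8 BLZ945 mice, 1 point a mouse, with the group mean and SD. For Ndufa4, Ndufs4 and Ndufab1, 7 of 8 BLZ945 points lie below every Vehicle point, and for Ndufv2 5 do.

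The housekeeping subunits of complex IV were mostly close to 0 on the probe sets used. Cox4i1, a nuclear-encoded subunit found in nearly all tissues, measured 11.57, 11.76 and 11.95 in Vehicle and 11.59, 11.79 and 12.18 in BLZ945, a difference of 0.04 with an interval from -0.16 to 0.25 (limma adjusted p = 0.811). Cox5b, Cox6a1, Cox6b1, Cox7a2 and Cox8a stood at -0.07, -0.09, -0.07, -0.14 and 0.05 and did not pass. Other bright probe sets of Cox5b gave -0.30, -0.23 and -0.04, and dim ones 0.32 and 0.19. The other probe set of Cox6a1 gave -0.29. Those of Cox6b1 and Cox7a2 gave -0.08 and -0.18, and those of Cox8a gave 0.09 and, where dim, 0.44. None of these passed over all probe sets. Cox5a and Cox6c lay just outside the threshold. Cox5a measured 10.97, 11.23 and 11.87 in Vehicle and 10.48, 10.83 and 11.29 in BLZ945, a difference of -0.47 (limma adjusted p = 0.0630). A dimmer probe set of Cox5a was lower by a difference of -0.61 that passed (limma adjusted p = 0.00683 over all probe sets). Cox6c measured 10.75, 10.92 and 11.16 in Vehicle and 10.41, 10.60 and 10.89 in BLZ945, a difference of -0.30 (limma adjusted p = 0.0676), and 6 treated mice lay below every Vehicle mouse.

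Cox7c, Cox8c and Cox7a2l had the highest differences of the 70, at 0.42, 0.35 and 0.31, and did not pass (limma adjusted p = 0.271, 0.332 and 0.351). Cox7c was dim, with a mean of 5.24, below the median of all values on every array (5.74 to 5.87). Its other probe set was dimmer still, at 3.64. Cox7a2l, which joins complexes III and IV into supercomplexes, measured 9.43, 9.93 and 10.64 in Vehicle and 9.65, 10.42 and 10.66 in BLZ945, and 7 of 8 treated mice lay above the Vehicle mean.

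Several complex IV subunits have isoforms used in muscle, lung or testis, and none of these was called. Cox4i2, the oxygen-responsive partner of Cox4i1 known from lung, measured 4.41, 4.76 and 5.32 in Vehicle and 4.19, 4.87 and 5.09 in BLZ945, a difference of -0.05 (limma adjusted p = 0.854). The heart and muscle isoforms Cox6a2, Cox7a1 and Cox8b stood at -0.12, -0.26 and 0.06, and the testis isoform Cox6b2 at -0.11. Cox6a2 varied most widely among mice, from 8.00 to 10.10 around a median of 8.67 in Vehicle and from 8.09 to 9.34 around 8.81 in BLZ945. Of 8 skeletal and cardiac muscle markers none was called, and their mean lay between 3.59 and 4.05 in Vehicle and between 3.66 and 4.07 in BLZ945.

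The assembly factors in the set had 0 of 8 called by limma and 0 at an unadjusted p under 0.05, with a median difference of 0.01. Ndufaf1, Ndufaf3, Ndufaf4, Ndufaf5 and Ndufaf7 act on complex I, and Sdhaf1, Sdhaf2 and Sdhaf4 on complex II. Sdhaf1, which helps insert iron-sulfur clusters into Sdhb, had the smallest p with a difference of -0.24 (limma adjusted p = 0.341). Ndufaf5, which modifies Ndufs7 during assembly, followed at -0.22 (limma adjusted p = 0.453). The others lay between -0.17 and 0.09.

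Of the 70 members, 37 had more than 1 probe set of their own, and in 24 of these all probe sets pointed the same way. When limma's p-values were adjusted over all 20393 probe sets with 1 symbol, none of the members' 132 probe sets was called higher, and 11 genes had at least 1 called lower. These were the called members other than Uqcrc1 (limma adjusted p = 0.0540 there), and Cox5a, Uqcrb, Ndufa5, Ndufb6 and Ndufc1, each through a probe set that was not its brightest. The calls depended on how probe sets were chosen. With the mean of all probe sets of a gene limma again called 7 members lower, but 2 of them (Ndufa4 and Uqcrc1) were among the 7 described above. Ndufs4, Ndufa12, Uqcrc2 and Ndufv2 then stood at -0.26, -0.36, -0.37 and -0.35 and Ndufab1 at 0.0034, and none of the 5 passed (limma adjusted p from 0.0692 to 0.991). With the probe set of highest SD 5 members were called lower, of which 3 (Ndufa4, Ndufv2 and Uqcrc2) were among the 7.

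Promoters of the members are shown because nuclear-encoded respiratory genes are known targets of NRF1, GABP and YY1. Windows of 300 bases, from 250 before to 50 after the start, were taken from RefSeq on GRCm38.p6 for 58 of the 70 members. They were searched on both strands for the palindromic NRF1 consensus and the longer YY1 consensus, which stand in capitals in the sequences that follow, and for CCGGAAGT of the ETS family, to which GABP belongs. None of the motifs contains another. The NRF1 letters were in the promoters of 4 members, or 6.90%, beside 1.07% of 27025 genes with a promoter. The ETS letters were in 4, or 6.90%, beside 4.31%, and the YY1 letters in 3, or 5.17%, beside 0.755%. The 27025 genes were not limited to the 12394 measured on the array, so these shares have another background than the expression calls.

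Among the 6 called members with a promoter, 1 held the NRF1 letters, 1 the YY1 letters and 0 the ETS letters, and both promoters are printed with the matching letters in capitals, on the gene's own strand. That of Uqcrc1 lies at chr9:108936398-108936697 on the plus strand and that of Ndufs4 at chr13:114388045-114388344 on the minus strand. Both matches lie past the start, their first base 31 and 36 bases from it, and in Ndufs4 the match is followed by the last 4 bases of the window.
Uqcrc1: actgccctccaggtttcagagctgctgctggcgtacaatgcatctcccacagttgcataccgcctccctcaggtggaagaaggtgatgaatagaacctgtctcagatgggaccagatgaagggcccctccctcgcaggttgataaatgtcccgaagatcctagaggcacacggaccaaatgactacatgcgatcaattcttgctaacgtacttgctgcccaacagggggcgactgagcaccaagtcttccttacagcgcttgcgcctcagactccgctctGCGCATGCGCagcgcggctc
Ndufs4: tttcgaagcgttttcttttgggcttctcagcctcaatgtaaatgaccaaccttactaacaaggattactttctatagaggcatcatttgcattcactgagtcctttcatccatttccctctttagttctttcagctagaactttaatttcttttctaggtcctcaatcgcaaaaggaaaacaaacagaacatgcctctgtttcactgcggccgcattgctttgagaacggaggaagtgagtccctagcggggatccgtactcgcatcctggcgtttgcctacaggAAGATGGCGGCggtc

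The same letters occurred in members that did not pass, shown here with their flanks so that the sites can be set beside those of Uqcrc1 and Ndufs4. The first 3 hold the NRF1 letters and the last 2 the YY1 letters.
Cox6a1: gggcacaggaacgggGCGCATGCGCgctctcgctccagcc
Ndufaf4: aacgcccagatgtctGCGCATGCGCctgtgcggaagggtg
Ndufaf5: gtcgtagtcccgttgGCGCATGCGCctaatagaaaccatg
Ndufa9: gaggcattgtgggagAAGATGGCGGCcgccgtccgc
Ndufs7: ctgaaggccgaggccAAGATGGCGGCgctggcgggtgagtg

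These windows lie at chr5:115349096-115349135 (minus strand) for Cox6a1, chr4:24897955-24897994 (plus) for Ndufaf4, chr2:140170647-140170686 (plus) for Ndufaf5, chr6:126849095-126849130 (minus) for Ndufa9 and chr10:80249458-80249498 (plus) for Ndufs7. The differences in expression were -0.09, 0.01, -0.22, -0.22 and 0.03 in that order, and none passed. Members with the same letters therefore stood both among the called and among the uncalled. The ETS letters were in the promoters of Cox8a, Ndufs3, Uqcr11 and Uqcrh, with differences of 0.05, -0.10, -0.31 and 0.23, none of which passed.

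To follow the set through single mice, each member was expressed as its deviation from the Vehicle mean and averaged by complex. For complex I the Vehicle mice lay between -0.12 and 0.10 and the BLZ945 mice between -0.50 and -0.0025. For complex III the Vehicle range was -0.18 to 0.12 and the BLZ945 range -0.33 to -0.05. All 8 treated mice thus lay below the Vehicle mean in complexes I and III, while the groups overlapped.

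In complex II the ranges were -0.12 to 0.17 in Vehicle and -0.25 to 0.08 in BLZ945, and in complex IV -0.12 to 0.21 and -0.14 to 0.02. The assembly factors ranged from -0.27 to 0.24 in Vehicle and from -0.30 to 0.17 in BLZ945. The treated range lay within or across the Vehicle range for these groups. BLZ945 1 lay at the lower end: it had the lowest value of the treated mice in 30 of 70 members and lay below the Vehicle mean in 62. At the upper end BLZ945 8 was the highest treated mouse in 20 members and BLZ945 2 in 17. Without BLZ945 1 the count of members called lower was 7, and without BLZ945 8 it was 9.

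**Figure D3:**
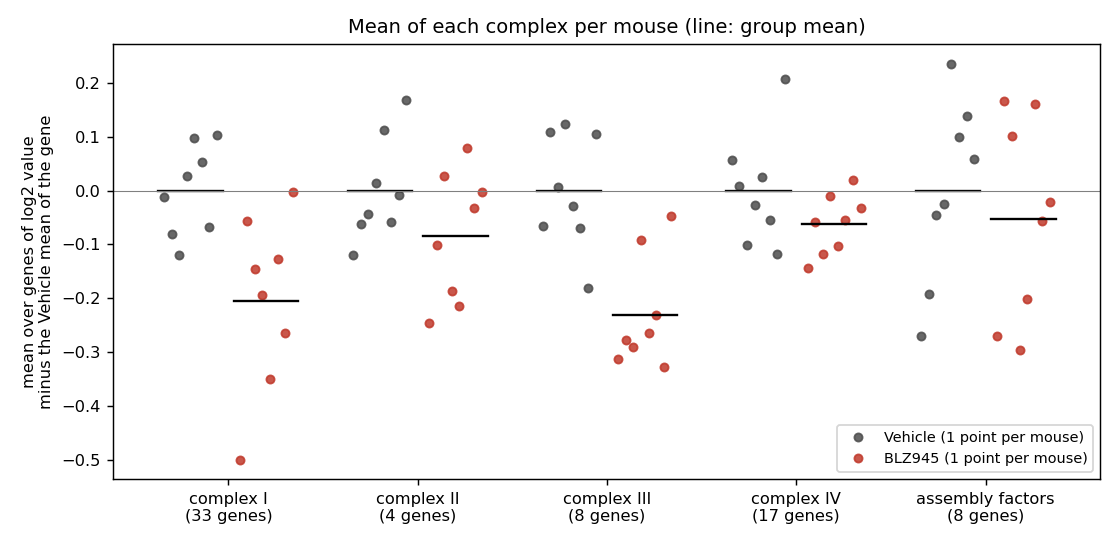
Mean deviation from the Vehicle mean in log2 (vertical axis) over the members of each complex and over the assembly factors, 1 point a mouse, 8 mice a group. In complexes I and III all BLZ945 points lie below 0, and the lowest, BLZ945 1 in complex I, is at -0.50.

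The genes that work with the chain were read from the same fit. Of 16 ATP synthase genes 5 fell, or 31.25%, beside 5.34% of all genes, and 0 rose, with a median of -0.32. They included Atp5b, the catalytic beta subunit, at -0.56 (limma adjusted p = 0.00913), and the membrane ring genes Atp5g1 at -0.52 (limma adjusted p = 0.0202) and Atp5g3 at -0.34 (limma adjusted p = 0.0213). Of the 3 genes listed for cytochrome c and cytochrome c1, 1 fell: Cycs, the electron carrier between complexes III and IV, at -0.67 (limma adjusted p = 0.0137). Cyc1, the cytochrome of complex III, stood at -0.22 and did not pass.

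Of 26 assembly factors outside the name rule 1 fell, or 3.85%, beside 5.34% of all genes. It was the complex III factor Uqcc2, at -0.48 (limma adjusted p = 0.0240). Of 16 genes of the tricarboxylic acid cycle and pyruvate dehydrogenase 2 fell, or 12.5%. Idh3a, a subunit of the NAD-linked isocitrate dehydrogenase, stood at -0.91 (limma adjusted p = 0.00320). Pdha1, of pyruvate dehydrogenase, stood at -0.64 (limma adjusted p = 0.0328). Of 74 mitochondrial ribosomal protein genes 6 fell (8.11%) and 0 rose, with a median of -0.17. Of 46 cytosolic ribosomal protein genes none was called by limma, and the median was -0.05.

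Among 17 regulators of mitochondrial biogenesis and mitochondrial DNA upkeep 0 fell and 1 rose, or 5.88%, beside 2.60% of all genes. It was Nrf1, which activates respiratory genes, at 0.39 (limma adjusted p = 0.0313). Of 10 genes of hypoxia-linked control 1 rose and 1 fell, or 10.0% each. Hif1a, the oxygen-regulated transcription factor, stood at 0.47 (limma adjusted p = 0.0394). Higd1a, a small inner-membrane protein, stood at -0.84 (limma adjusted p = 0.0121). ND5, a complex I subunit encoded in mitochondrial DNA and not a member, measured 11.72, 12.06 and 12.71 in Vehicle and 11.56, 12.11 and 12.64 in BLZ945, a difference of -0.05 (limma adjusted p = 0.892). The groups overlapped over most of their range.

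**Figure D4:**
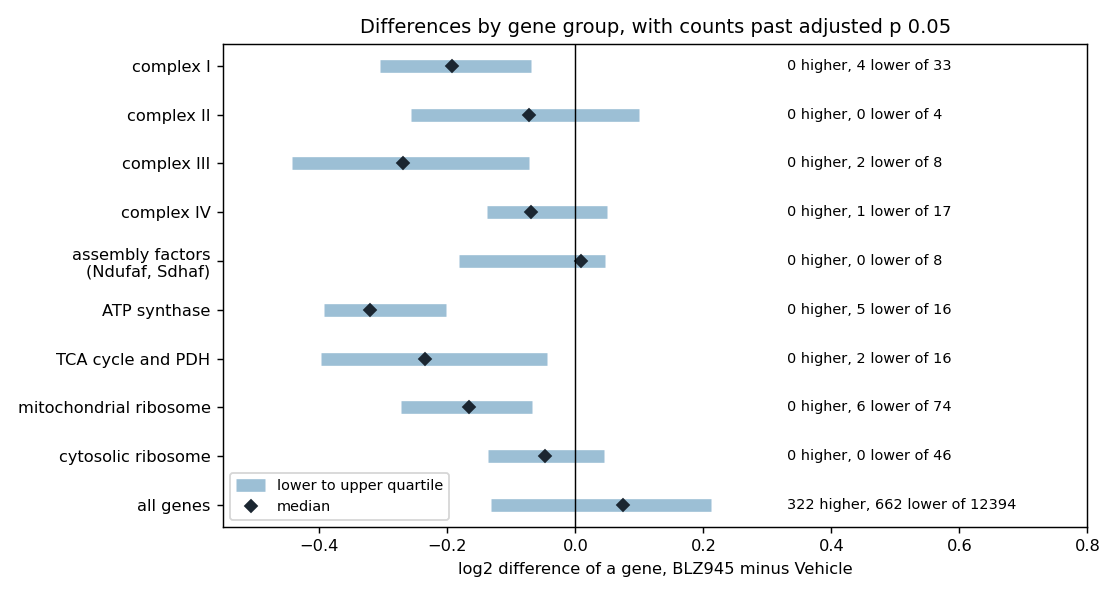
Log2 differences between BLZ945 and Vehicle (horizontal axis) for the genes of each complex, the assembly factors, related lists and all genes: a diamond marks the median over genes, a bar runs from the lower to the upper quartile, and the counts called by limma stand at the right. The medians of complex III and ATP synthase lie at -0.27 and -0.32, those of the assembly factors and cytosolic ribosomal proteins at 0.01 and -0.05.

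Measures of other kinds moved with the groups. All 11 proliferation genes on the array fell, and their mean lay between 7.53 and 8.86 in Vehicle and between 5.26 and 7.31 in BLZ945, without overlap. Of 11 markers of glioma cells and oligodendrocyte precursors 5 fell, with means between 5.81 and 7.37 in Vehicle and between 4.75 and 6.30 in BLZ945. Of 8 astrocyte markers 2 fell, with means between 5.66 and 6.31 and between 5.07 and 5.70. Their part in the member differences was not tested separately from the agent, and with the glioma mean as a covariate limma called 0 members, with 5 lower and 1 higher at an unadjusted p under 0.05, and 0.799% of all genes lower. With the proliferation mean limma called 0 members and 0 of all genes, and 0 members had an unadjusted p under 0.05.

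The mean of the 12 macrophage and microglia markers lay between 11.99 and 12.46 in Vehicle and between 11.93 and 12.29 in BLZ945. Itgam, which encodes CD11b, fell by 1.17, and the other 11 were not called. Of 8 T and natural killer cell markers none was called, while 7 were higher at an unadjusted p under 0.05, with means between 3.97 and 5.19 in Vehicle and between 4.45 and 6.56 in BLZ945.

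Age and labelled tumor volume differed between the groups. The initial tumor volume, labelled without a unit, was 11.9 to 27.3 in 6 Vehicle mice and 41.3 to 132.3 in BLZ945, so volume and agent cannot be told apart between the groups. Every BLZ945 value was above the 40 mm3 that the labels' protocol gives as the upper limit for enrolment, so what the label measures is not settled, and the fits on volume rest on it. Only mice of 11.29 weeks, 4 in each group, had the same age in both. Among them limma called 0 members, with 10 lower and 1 higher at an unadjusted p under 0.05, beside 0.629% of all genes called lower. The median over members was -0.15, and the 7 called members had differences from -0.48 to -0.31 (limma adjusted p from 0.163 to 0.345). Each of the 7 was thus still lower in the treated mice of that age, without passing.

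No member was called in the fits of sex, of its interaction with the agent, of age within BLZ945 or of volume within BLZ945. For sex 4 members had an unadjusted p under 0.05, or 5.71%, beside 9.80% of all genes, of which 0.0323% were called. The smallest p for sex was that of Cox6a2, at -0.64 in males minus females (limma adjusted p = 0.484), followed by Cox7c at 0.48 (limma adjusted p = 0.504). The interaction had 1 member with an unadjusted p under 0.05, or 1.43%, beside 3.34% of all genes, of which 0% were called. It was Cox5a, whose agent difference was 0.76 higher in males (limma adjusted p = 0.983).

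Between the BLZ945 mice of 13.14 and 11.29 weeks, 7 members had an unadjusted p under 0.05, or 10.0%, beside 18.7% of all genes, of which 0.0403% were called. Uqcrc2 had the smallest, at -0.59 in the older mice (limma adjusted p = 0.184), followed by Ndufs1 at -0.49 (limma adjusted p = 0.213). On log2 tumor volume within BLZ945, 8 members had an unadjusted p under 0.05, or 11.4%, beside 6.83% of all genes, of which 0% were called. The smallest were those of Ndufb6, with a slope of 0.54 for each doubling of volume (limma adjusted p = 0.653), and Ndufaf4 with 0.45 (limma adjusted p = 0.711).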

How the data were processed

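RNA of sorted cells from 16 mice was measured on 1 array each. The values are log2 levels per probe set, deposited by the authors. GCOS 1.4 and RMA are listed in the submitters' processing notes with no roles, and a genome build is not given in the sources used here. As commonly run, RMA subtracts background and normalizes arrays together, and it shrinks differences of dim probe sets. Scanner intensities were not used here, so nothing was called above background. Precision is limited by the number of arrays.

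Of 22690 probe sets, 20393 carried 1 symbol in GEO's platform annotation, 691 several and 1606 none. A RefSeq gene table held 20364 of the 20393, and 0 symbols were altered. The brightest probe set by mean over all arrays stood for each of 12394 genes, with no filter on dim probe sets. Correlations between arrays ran from 0.937 to 0.991, so each counted once.

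The groups were compared with limma 3.58.1 (R 4.3.3), by lmFit and then eBayes without covariates, with Benjamini-Hochberg adjustment over all 12394 genes and a threshold of 0.05. Further fits tested sex, its interaction with the agent, age within BLZ945 and log2 volume within BLZ945. The fit was tested on simulated data. Alternatives covered probe set choice, normalization, covariates, subsets of mice and leaving out each mouse. Members, lists and tests were chosen with earlier results of these data known.

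Named in full were up to 10 called members in each direction, the 2 members of each complex and of the assembly factors with the smallest p, the brightest and dimmest of each complex, and a list of catalytic subunits and tissue isoforms. Also named were the 2 with the smallest p in each further fit, and up to 3 called genes of each pathway list, or else the 1 with the smallest p. Other members are named to account for the set.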

Additional observations from a re-analysis of the deposited data

Results flagged for a closer look

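In 7 of 152 sets of 8 mice (2 groups for each of the 70 members and for the means over groups of members), 1 mouse stood apart from the other 7 by Dixon's test at the 95% level. Chance alone flags about 1 in 20, or 7.6 of 152. In Vehicle these were Ndufb5, at 9.08 in Vehicle 2 with the others between 9.99 and 10.12, and Ndufb9, at 10.20 in Vehicle 8 with the others between 9.78 and 9.94. In BLZ945, high values were those of Ndufs5 (8.89 in BLZ945 8, others 8.22 to 8.48), Ndufv1 (8.999 in BLZ945 4, others 8.35 to 8.64), Uqcrb (12.14 in BLZ945 2, others 11.77 to 11.90) and Cox4i1 (12.18 in BLZ945 8, others 11.59 to 11.85). A low value was that of Ndufaf7, at 6.34 in BLZ945 4 with the others between 6.93 and 7.36. None of these 7 genes was among the called members, and without BLZ945 8 Ndufs5 passed the test (limma adjusted p = 0.0291).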

How the results depend on the processing

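The count of 7 members called lower was 11 when every probe set was tested (13 of 132 probe sets, beside 4.67% of all). It was 12 without genes under the median level, beside 8.88% of the genes left. It was 1 in females (Ndufa12), and 0 in males and in mice of 11.29 weeks. With age, log2 tumor volume, the proliferation mean or the glioma marker mean as covariate it was also 0. The shares of all genes called lower were 2.19% in females, 0.0161% in males and 0.629% in mice of 11.29 weeks. They were 1.43% with age, 0.0888% with volume, 0% with proliferation and 0.799% with the glioma mean. Only mice of 11.29 weeks occur in both groups, so differences with age as covariate are those of these mice. Leaving out 1 mouse gave 4 to 9 members (4 without Vehicle 4, Vehicle 6, Vehicle 8 or BLZ945 7) and medians from -0.17 to -0.12. The median over members was -0.42 with tumor volume and -0.041 with the glioma mean. With the array SD as covariate 3 members were higher in place of 0, and 866 of all 12394 genes in place of 322. Among called genes, Ndufab1 was at 0.0034 with the mean of probe sets and 0.26 with the most variable one. Ndufa12 was at 0.33 with the latter, and Uqcrc1 at 0.42 with tumor volume. The most variable probe sets of Ndufab1 and Ndufa12 were dim, with means of 4.73 and 4.99. The mean for Ndufab1 included dim probe sets at 0.17 and 0.26 beside the bright one at -0.43. Why the covariates changed the values was not tested. The 34 named members, called and uncalled, gave 1116 comparisons with the main fit. Of these, 93 were a change of sign in a gene uncalled under both settings. Cox5a, Cox6c, Ndufa10, Ndufb1, Ndufs5 and Uqcrq passed in 1 to 3 of 16 fits without 1 mouse. The labels number mice 1 to 8 in both groups, but same-numbered mice deviated together (correlation over 0.1) in 5 of 8 pairs and only 3 of 16 arrays correlated best with their own number. A replicate block gave 6 members. Of the 7 calls, 5 were kept with the block, 6 with every probe set, 3 with the most variable probe set and 2 with the mean of probe sets.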
